A study of Mus musculus with 16 samples.

Results

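Collagens are the fibrous proteins of the extracellular matrix, built from 3 chains that wind into a triple helix along a glycine-rich repeat. Fibrillar collagens form the load-bearing fibrils of the tissue between muscle fibres and of tendon, basement membrane collagens form the sheet that wraps each fibre and vessel, and the other collagens decorate fibrils, link them to cells, form short-chain networks or span the cell membrane. Chains are hydroxylated and folded in the endoplasmic reticulum, trimmed outside the cell, cross-linked, and read by cell surface receptors. The genes described here are the protein-coding mouse genes whose symbol has the form Col, a type number, a and a chain number, with a summed count of at least 16 over all libraries. All 44 such genes among the 30037 genes of the count table qualified: 11 fibrillar, 9 basement membrane and 24 other collagens. Of these 44, 43 passed the filter on low counts, and Col6a4, with 20 counts in all, did not.

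RNA was sequenced from the tibialis anterior, a leg muscle, of male C57BL/6N mice aged 7 weeks. The groups were Dnm2SL/+ mice given ASO1 (n = 4 libraries), Dnm2SL/+ mice given ASO Control (n = 6), WT mice given ASO1 (n = 2) and WT mice given ASO Control (n = 4). Dnm2SL/+ mice have 1 mutant copy of Dnm2, which encodes the membrane-severing GTPase dynamin 2, and model autosomal dominant centronuclear myopathy, a muscle disease of misplaced nuclei. ASO1 is an antisense oligonucleotide that by the series title lowers Dnm2, and every mouse had an oligonucleotide, so no uninjected muscle is included.

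Library totals ran from 30148163 to 33667052 counts. Dnm2 averaged 30.5 ± 3.88 CPM (counts per 1000000 counts, SD, n = 4) in Dnm2SL/+ ASO1 muscle and 54.9 ± 11.6 CPM (SD, n = 6) in Dnm2SL/+ ASO Control muscle, and 23.96 ± 1.43 CPM (SD, n = 2) in WT ASO1 muscle and 52.7 ± 5.23 CPM (SD, n = 4) in WT ASO Control muscle. Dnm2SL/+ ASO Control 6, at 35.1 CPM, was inside the range of the Dnm2SL/+ ASO1 libraries, 26.6 to 35.2 CPM. The 8 muscle fibre markers had a summed level of 109300 to 170900 CPM over the 16 libraries. The submitters corrected the labels of WT ASO Control 4 after deposit, and the corrected labels were used. The labels do not name the animal behind each library, so p-values measure the spread between these libraries.

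The 3 classes differ in the genes themselves. In the coding sequence of each gene, taken as the longest protein-coding transcript of GENCODE M21 (GRCm38), a codon that starts with GG encodes glycine, and the triple helix needs a glycine every 3 codons. The longest unbroken run of such triplets was 216 to 344 triplets in the 11 fibrillar genes (median 338), against 30 to 75 (median 42) in the 9 basement membrane genes and 23 to 113 (median 48.5) in the 24 other genes. Exons of exactly 54 bases made up 47.0% of the 649 coding exons of fibrillar genes, 4.44% of 495 in basement membrane genes and 16.5% of 861 in the other genes, beside 0.67% of the 242303 coding exons of the annotation. By run length the 3 type IX genes and Col22a1, at 113 triplets, and Col6a1 and Col6a2, at 87, lay between the basement membrane and fibrillar classes. By share of 54-base exons Col22a1 (44.4%), Col9a2 and Col9a3 (43.8% each) lay within the fibrillar range, 41.2% to 55.0%. To show the repeat that sets the classes apart, 54-base exons of the 3 fibrillar genes called in the genotype comparison and a 73-base exon of Col4a5 are given 5′ to 3′ with the glycine codons in capitals. They lie at chr1:45334761-45334814 on the plus strand (coding exon 26 of 51), chr1:45403116-45403169 on the minus strand (29 of 54), chr4:63293201-63293254 on the plus strand (26 of 61) and chrX:141669028-141669100 on the plus strand (45 of 53).
Col3a1: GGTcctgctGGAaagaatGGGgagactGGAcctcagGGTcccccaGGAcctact
Col5a2: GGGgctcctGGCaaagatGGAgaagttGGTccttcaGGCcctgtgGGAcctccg
Col27a1: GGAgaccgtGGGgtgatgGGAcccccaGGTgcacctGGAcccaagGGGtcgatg
Col4a5: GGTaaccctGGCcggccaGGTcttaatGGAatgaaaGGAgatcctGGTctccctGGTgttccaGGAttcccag
The fibrillar exons each hold 6 whole triplets, so that exons of this size can follow each other without shifting the repeat. The Col4a5 exon holds 8 glycine codons and ends inside a codon.

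**Figure D1:**
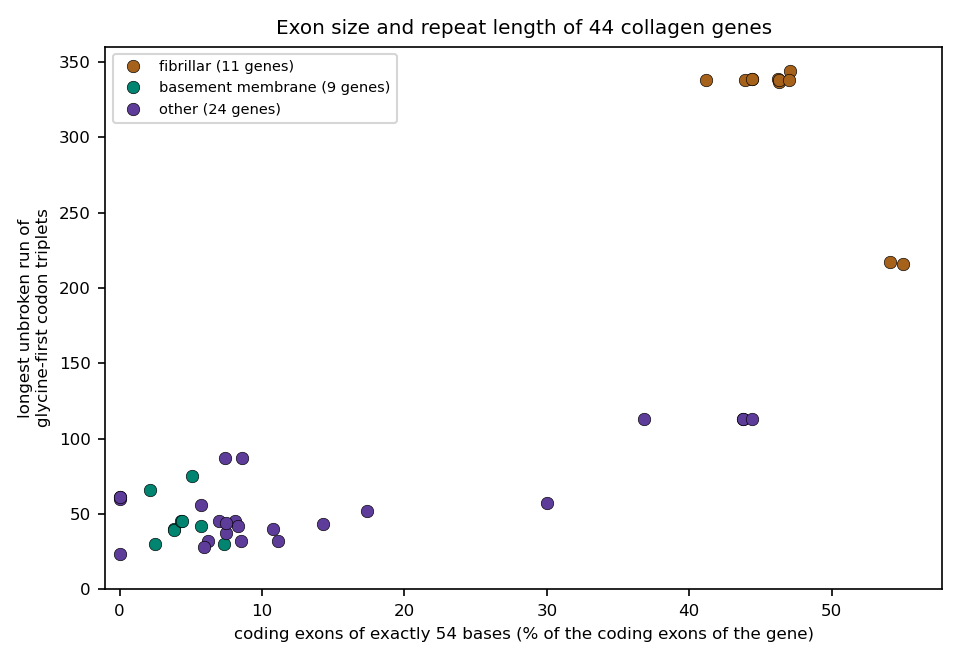
Share of coding exons of exactly 54 bases (x axis, percent of the coding exons of the gene) and longest unbroken run of glycine-first codon triplets (y axis, number of triplets) for each of the 44 collagen genes, coloured by class. The 11 fibrillar genes lie at 216 triplets or more, and every basement membrane gene at 75 or fewer.

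Collagen transcripts made up 0.316% ± 0.110 of all counts in Dnm2SL/+ ASO1 muscle (SD, n = 4), 0.443% ± 0.0451 in Dnm2SL/+ ASO Control muscle (SD, n = 6), 0.192% ± 0.0227 in WT ASO1 muscle (SD, n = 2) and 0.235% ± 0.0967 in WT ASO Control muscle (SD, n = 4). In bulk muscle, more collagen-producing cells and more collagen RNA per cell cannot be told apart. A few genes carried most of this level: Col4a1, Col3a1, Col1a2, Col4a2 and Col1a1 held 75.0% of the summed collagen CPM as a mean over the 16 libraries. Per kilobase of exon, the basement membrane chain Col4a1 led in WT ASO Control muscle, at 62.5 ± 13.4 CPM per kb (SD, n = 4), followed by Col4a2 at 49.0 ± 9.57, Col1a1 at 45.9 ± 27.9, Col3a1 at 41.4 ± 19.1 and Col1a2 at 30.5 ± 17.9 CPM per kb. Col4a1 exceeded Col4a2 in every library, and the other neighbours in this order differed by less than the larger of their SDs. In Dnm2SL/+ ASO Control muscle Col3a1, the chain of type III collagen of soft tissue, was at the top with 85.0 ± 10.6 CPM per kb (SD, n = 6), beside 82.1 ± 9.81 for Col4a1 and 75.1 ± 24.2 for Col1a1, again within the spread. The exon length merges all annotated transcripts, such as 12.4 kb for Col1a2 with 4116 coding bases, so the order between genes depends on the annotation. These 5 genes are named for their level, seen in the data.

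The summed level of the 11 fibrillar genes averaged 1489 ± 635 CPM in Dnm2SL/+ ASO1 (SD, n = 4), 2269 ± 339 CPM in Dnm2SL/+ ASO Control (SD, n = 6), 934 ± 98.8 CPM in WT ASO1 (SD, n = 2) and 1281 ± 651 CPM in WT ASO Control (SD, n = 4). The 9 basement membrane genes summed to 1315 ± 512, 1215 ± 116, 917 ± 54.1 and 900.5 ± 180 CPM in the same groups, and the 24 other genes to 360 ± 113, 583 ± 62.4, 266 ± 34.0 and 321 ± 139 CPM. The mean sums of fibrillar and other collagens were thus highest in Dnm2SL/+ ASO Control, whereas the basement membrane sum of the Dnm2SL/+ ASO1 libraries spanned 712 to 1929 CPM and covered those of both ASO Control groups. WT ASO Control 1 was the highest WT ASO Control library in all 3 sums, and each lay inside the Dnm2SL/+ ASO Control range, as with its fibrillar sum of 2236 CPM in a range of 1899.5 to 2782 CPM.

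**Figure D2:**
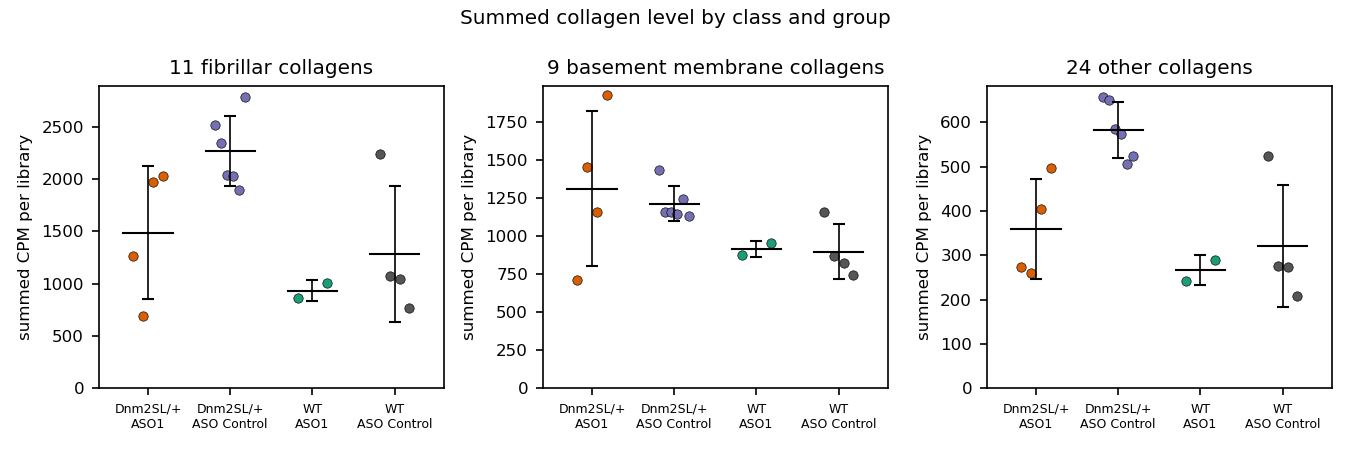
Summed level of the collagens of each class (CPM after TMM scaling, y axis) in each library of the 4 groups (x axis), with points for libraries, lines for means and bars for SD. The mean fibrillar and other sums are highest in Dnm2SL/+ ASO Control, and 1 WT ASO Control library stands above the other WT libraries in each panel.

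What the mutation did to collagens was read from Dnm2SL/+ ASO Control against WT ASO Control. Of the 43 collagens tested, 15 were higher (34.9%) and 5 were lower (11.6%), and the median log2 fold change (log2FC) was 0.72. The same fit called 15.7% of all 15649 genes higher and 16.4% lower, with a median of 0.0022 (edgeR quasi-likelihood test, Benjamini-Hochberg adjusted p under 0.05 over all genes). In 9 collagens every mutant library lay above every WT library, and in 0 every one lay below, beside 11.3% and 12.0% of all genes. The count of higher calls was 8 without WT ASO Control 2 and 8 without WT ASO Control 4, and 22 without WT ASO Control 1. Of the 15 higher calls 8, and of the 5 lower calls 2, stood in every alternative that kept this threshold: Col8a1, Col4a5, Col27a1, Col18a1, Col26a1, Col6a1, Col6a2 and Col6a3 among the higher, and Col9a1 and Col6a6 among the lower. The count of lower calls was 3 without Dnm2SL/+ ASO Control 2, Dnm2SL/+ ASO Control 5 or WT ASO Control 3.

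Of the fibrillar class 3 of 11 genes were called higher and 0 lower, beside 15.7% and 16.4% of all genes, with a median log2FC of 0.71. Col27a1, a fibrillar chain best known from cartilage, had 2.499, 1.71, 2.35 and 2.22 CPM in the Dnm2SL/+ ASO1 libraries, 2.15 to 4.96 CPM (median 3.87) in Dnm2SL/+ ASO Control, 1.80 and 2.12 CPM in WT ASO1 and 2.14, 2.21, 1.41 and 1.28 CPM in WT ASO Control. Of the 6 mutant libraries on ASO Control 5 were above every WT ASO Control library, and the remaining library lay among them. Its log2FC was 1.09 ± 0.22 (SE, edgeR adjusted p = 0.0015). Col5a2, a chain of type V collagen, which sits inside type I fibrils and sets their diameter, had 36.9, 35.6, 73.9 and 86.4 CPM in Dnm2SL/+ ASO1, 88.1 to 111 CPM (median 95.4) in Dnm2SL/+ ASO Control, 24.3 and 46.3 CPM in WT ASO1 and 80.2, 42.9, 51.4 and 35.9 CPM in WT ASO Control. The Dnm2SL/+ ASO Control libraries lay above all others, and WT ASO Control 1 came nearest among WT. The log2FC was 0.90 ± 0.27 (SE, adjusted p = 0.019), and the call was lost without WT ASO Control 2 or 4 (adjusted p = 0.058 and 0.070).

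Col3a1, the only chain of type III collagen, had 212, 284, 544 and 970.2 CPM in Dnm2SL/+ ASO1, 741 to 999.6 CPM (median 793) in Dnm2SL/+ ASO Control, 163 and 286 CPM in WT ASO1 and 686, 307, 338 and 292 CPM in WT ASO Control. Every mutant library on ASO Control was above every WT library, although WT ASO Control 1 stood well above the other 3 of its group. The log2FC was 1.04 ± 0.36 (SE, adjusted p = 0.037). The call did not hold without any of 6 control libraries (WT ASO Control 2, 3 or 4, Dnm2SL/+ ASO Control 1, 2 or 3), where log2FC was 0.91 to 1.06 and adjusted p was 0.051 to 0.11. A gene model on the same strand, Gm47302, overlaps exons of Col3a1. The other type V chains did not pass: Col5a3 had 26.1, 64.5, 60.9 and 114 CPM in Dnm2SL/+ ASO1, 67.1 to 111 CPM (median 98.2) in Dnm2SL/+ ASO Control, 41.4 and 48.2 CPM in WT ASO1 and 78.9, 55.8, 54.2 and 44.5 CPM in WT ASO Control, with a log2FC of 0.71 ± 0.28 (SE, adjusted p = 0.067). Col5a1 had 38.1, 40.8, 72.0 and 99.4 CPM in Dnm2SL/+ ASO1, 72.6 to 96.7 CPM (median 86.7) in Dnm2SL/+ ASO Control, 31.1 and 50.1 CPM in WT ASO1 and 79.6, 46.9, 57.3 and 38.7 CPM in WT ASO Control, with a log2FC of 0.62 ± 0.25 (SE, adjusted p = 0.074). In both chains WT ASO Control 1 fell inside the mutant range, and both were called without it (log2FC 0.89 and 0.84, adjusted p = 0.039 and 0.023) and without Dnm2SL/+ ASO1 4 (adjusted p = 0.025 and 0.035). Col5a3 was also called without Dnm2SL/+ ASO1 1 or Dnm2SL/+ ASO Control 6.

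Type I collagen, the main collagen of tendon and of the connective tissue around muscle bundles, was not called. Col1a1 and Col1a2, described for their abundance after their values were seen, averaged 493 ± 159 and 629 ± 168 CPM in Dnm2SL/+ ASO Control (SD, n = 6), against 301 ± 183 and 379 ± 222 CPM in WT ASO Control (SD, n = 4), with edgeR log2FC of 0.71 ± 0.39 and 0.73 ± 0.37 (SE, adjusted p = 0.18 and 0.15). Both were called without WT ASO Control 1, where the log2FC was 1.21 for each, with adjusted p = 0.023 and 0.018. Of the 11 fibrillar genes 2 had a negative log2FC, neither of them called, and for both the sign changed in some alternatives.

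**Figure D3:**
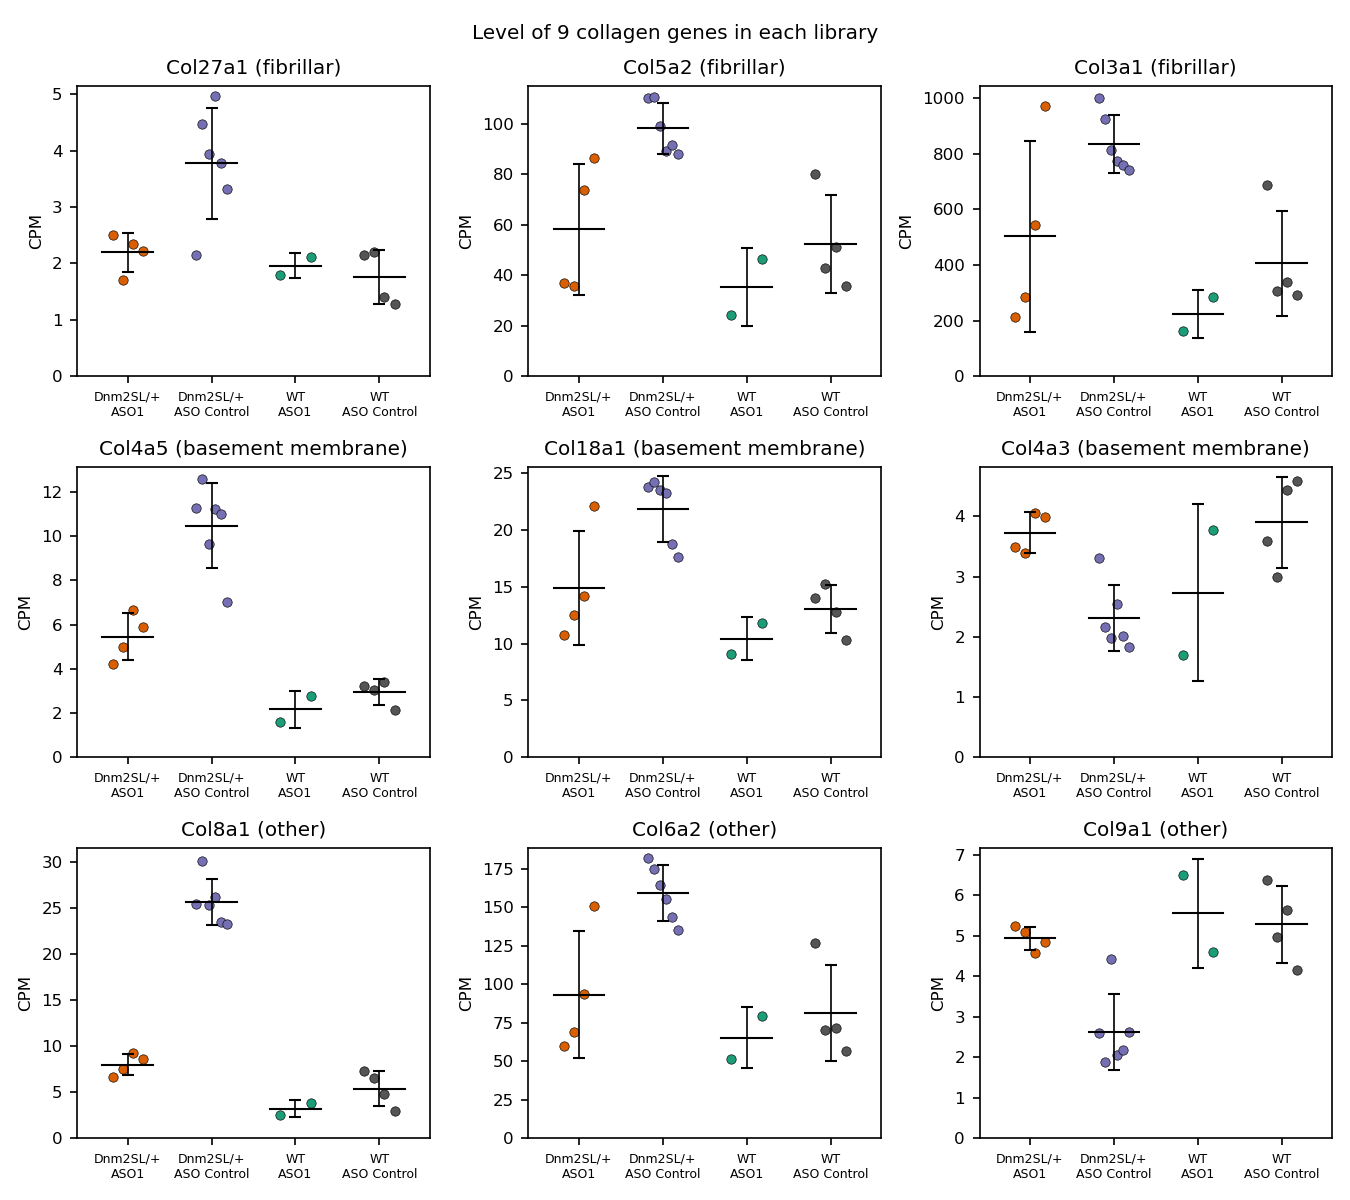
Level (CPM after TMM scaling, y axis) of 9 collagen genes in each library of the 4 groups (x axis), with points for libraries, lines for means and bars for SD. Col8a1 and Col4a5 separate the Dnm2SL/+ ASO Control libraries from all others, and Col4a3 and Col9a1 are lower there than in the other Dnm2SL/+ group.

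In the basement membrane class 3 of 9 genes were higher and 2 lower, beside 15.7% and 16.4% of all genes, with a median log2FC of 0.40. With 9 genes, 2 lower is near that share. Col4a5, a chain of the specialised type IV networks that replace the common network in kidney, lung and the neuromuscular junction, had 4.24, 4.98, 6.67 and 5.89 CPM in Dnm2SL/+ ASO1, 7.04 to 12.6 CPM (median 11.1) in Dnm2SL/+ ASO Control, 1.59 and 2.77 CPM in WT ASO1 and 3.23, 3.05, 3.41 and 2.13 CPM in WT ASO Control. The groups formed 3 separate levels, with Dnm2SL/+ ASO Control above Dnm2SL/+ ASO1 and Dnm2SL/+ ASO1 above both WT groups. The log2FC between the ASO Control groups was 1.82 ± 0.20 (SE), a 3.53-fold difference (adjusted p = 8.5e-06). Col4a6, its neighbour on chromosome X, had 0.296, 0.0989, 0.0981 and 0.158 CPM in Dnm2SL/+ ASO1, 0.0578 to 0.262 CPM (median 0.156) in Dnm2SL/+ ASO Control, 0.106 and 0.252 CPM in WT ASO1 and 0.352, 0.373, 0.826 and 0.220 CPM in WT ASO Control. The mutant libraries were lower, with overlap, and the log2FC was -1.46 ± 0.47 (SE, adjusted p = 0.025). Without WT ASO Control 3, the highest WT library, it was -0.98 with adjusted p = 0.15, and without Dnm2SL/+ ASO Control 2 or 5 the adjusted p was 0.054 and 0.051.

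Col4a5 and Col4a6 are arranged head to head and their annotated starts lie 1308 bases apart, so their upstream sequences are printed side by side. Per kilobase of exon Col4a5 exceeded Col4a6 by 50.4 ± 26.8 times in Dnm2SL/+ ASO1 (SD, n = 4), 119 ± 92.6 times in Dnm2SL/+ ASO Control (SD, n = 6), 15.4 ± 3.36 times in WT ASO1 (SD, n = 2) and 9.24 ± 2.99 times in WT ASO Control (SD, n = 4). The lowest ratio among Dnm2SL/+ ASO Control libraries, 31.9, was above the highest of WT ASO Control, 11.5. These ratios rest on 2 to 9 counts of Col4a6 in each Dnm2SL/+ ASO Control library and 6 to 24 in each WT ASO Control library. The sequences come from RefSeq (GRCm38.p6) and end at the annotated start of the gene: chrX:141475169-141475384 on the plus strand, and chrX:141474077-141474326 on the minus strand. Capitals mark matches, on either strand, to the CCAAT box (CCAAT), the TATA box (TATAAA), the GC box (GGGCGG) or the AP-1 motif (TGANTCA).
Col4a5: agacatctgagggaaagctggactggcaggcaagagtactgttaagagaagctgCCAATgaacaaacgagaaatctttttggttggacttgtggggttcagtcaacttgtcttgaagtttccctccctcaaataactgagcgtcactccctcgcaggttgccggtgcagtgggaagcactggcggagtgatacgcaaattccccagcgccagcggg
Col4a6: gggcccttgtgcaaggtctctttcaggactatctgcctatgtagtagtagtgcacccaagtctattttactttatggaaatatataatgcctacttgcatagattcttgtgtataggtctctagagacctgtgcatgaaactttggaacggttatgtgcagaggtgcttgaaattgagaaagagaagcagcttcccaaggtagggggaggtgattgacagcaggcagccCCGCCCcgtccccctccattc
Col4a5 held 1 CCAAT in its window of 216 bases, and Col4a6 held 1 GGGCGG in its window of 250 bases. The Col4a5 window is the shorter, and over 250 bases Col4a5 was counted with GGGCGG as well.

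The other head-to-head pairs of type IV chains, described for their position, kept closer ratios. Col4a1 and Col4a2, which form the common network of all basement membranes and whose transcripts overlap by 22 bases, had log2FC of 0.39 ± 0.22 and 0.40 ± 0.19 (SE, adjusted p = 0.19 and 0.12), and Col4a2 was called without Dnm2SL/+ ASO1 1 (adjusted p = 0.036). Their ratio per kilobase, Col4a2 over Col4a1, was 0.772 ± 0.0622 in Dnm2SL/+ ASO1 (SD, n = 4), 0.790 ± 0.0249 in Dnm2SL/+ ASO Control (SD, n = 6), 0.779 ± 0.0239 in WT ASO1 (SD, n = 2) and 0.785 ± 0.0167 in WT ASO Control (SD, n = 4), with overlapping ranges, although the level of Col4a1 ran from 352 to 1076 CPM among Dnm2SL/+ ASO1 libraries alone. Col4a3, which pairs with Col4a4 and Col4a5 in the specialised network, had 3.48, 3.396, 4.05 and 3.99 CPM in Dnm2SL/+ ASO1, 1.83 to 3.31 CPM (median 2.09) in Dnm2SL/+ ASO Control, 1.70 and 3.77 CPM in WT ASO1 and 3.59, 2.99, 4.44 and 4.58 CPM in WT ASO Control. Of the 6 mutant libraries on ASO Control 5 were below every WT ASO Control library, and the log2FC was -0.75 ± 0.21 (SE, adjusted p = 0.011), or -0.52 (adjusted p = 0.056) with library totals in place of TMM scaling. The call of Col4a3 was also lost with the replicate number as a block (adjusted p = 0.0998). Its partner Col4a4, 71 bases away, had a log2FC of -0.37 ± 0.23 (SE, adjusted p = 0.24), and Col4a4 over Col4a3 per kilobase was 0.762 to 1.33 in Dnm2SL/+ ASO Control and 0.685 to 0.847 in WT ASO Control, with overlap. The chains of the specialised network therefore differed in sign, with Col4a5 higher and Col4a3 lower.

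Col18a1, the source of the angiogenesis inhibitor endostatin, had 10.8, 12.5, 14.2 and 22.1 CPM in Dnm2SL/+ ASO1, 17.6 to 24.2 CPM (median 23.4) in Dnm2SL/+ ASO Control, 9.09 and 11.8 CPM in WT ASO1 and 14.1, 15.2, 12.8 and 10.3 CPM in WT ASO Control. The ASO Control groups did not overlap, and the log2FC was 0.74 ± 0.18 (SE, adjusted p = 0.0048). Col7a1, the anchoring fibril collagen of skin, had 49.5, 33.5, 56.0 and 38.8 CPM in Dnm2SL/+ ASO1, 36.3 to 71.5 CPM (median 63.6) in Dnm2SL/+ ASO Control, 58.1 and 44.5 CPM in WT ASO1 and 45.0, 38.8, 36.9 and 43.2 CPM in WT ASO Control. Dnm2SL/+ ASO Control 1 was below all 4 WT libraries and the other 5 were above them. The log2FC was 0.52 ± 0.17 (SE, adjusted p = 0.031), and the call was lost without any of 6 control libraries (adjusted p 0.052 to 0.088).

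In the class of other collagens 9 of the 23 genes tested were higher and 3 lower, beside 15.7% and 16.4% of all genes, with a median log2FC of 0.83. Col8a1, a short-chain collagen that forms hexagonal networks beneath endothelium and in vessel walls, showed the smallest p of all collagens. It had 6.64, 7.49, 9.28 and 8.58 CPM in Dnm2SL/+ ASO1, 23.3 to 30.1 CPM (median 25.4) in Dnm2SL/+ ASO Control, 2.58 and 3.88 CPM in WT ASO1 and 7.27, 6.499, 4.85 and 2.93 CPM in WT ASO Control. The lowest Dnm2SL/+ ASO Control library was above every other library of the series by a wide margin. The log2FC was 2.25 ± 0.20 (SE), a 4.74-fold difference (adjusted p = 1.9e-06). Unlike the fibrillar genes, Col8a1 has 2 coding exons, and 1 of them, of 1904 bases, encodes most of the protein.

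The 250 bases upstream of Col8a1 are shown with those of Col3a1, as the collagen with the smallest p and the most abundant fibrillar collagen called. They lie at chr16:57754738-57754987 on the minus strand and chr1:45311288-45311537 on the plus strand (RefSeq, GRCm38.p6), with capitals as above.
Col8a1: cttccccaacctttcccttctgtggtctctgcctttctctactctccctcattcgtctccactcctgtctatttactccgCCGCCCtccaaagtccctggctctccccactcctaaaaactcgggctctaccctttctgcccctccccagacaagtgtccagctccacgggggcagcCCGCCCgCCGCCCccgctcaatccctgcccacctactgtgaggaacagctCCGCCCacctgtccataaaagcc
Col3a1: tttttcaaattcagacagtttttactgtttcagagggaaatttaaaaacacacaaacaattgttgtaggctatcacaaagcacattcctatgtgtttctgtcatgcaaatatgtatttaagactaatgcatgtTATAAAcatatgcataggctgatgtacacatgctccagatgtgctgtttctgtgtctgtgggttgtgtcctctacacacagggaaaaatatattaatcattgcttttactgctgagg
Col8a1 held 4 matches to GGGCGG and Col3a1 held 1 TATAAA, and none of the 4 printed windows held more than 1 kind of motif. The printed Col4a5 window, of 216 bases, is shorter than the rest. In the shares that follow, Col4a5 was counted with both CCAAT and GGGCGG. Over the 250 bases upstream of the 35 collagens matched in the promoter table, GGGCGG was found in 60.0% and TATAAA in 14.3%, beside 32.7% and 12.4% of all 32851 promoters of the same length. CCAAT was found in 34.3% and TGANTCA in 2.9% of the collagens, beside 33.8% and 6.7% of all promoters. These matches are descriptions of letters, not of bound sites.

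Type VI collagen forms the beaded filaments around muscle fibres, and its main chains are mutated in human congenital myopathies. Col6a1 had 72.3, 71.5, 105 and 138 CPM in Dnm2SL/+ ASO1, 134 to 191 CPM (median 155) in Dnm2SL/+ ASO Control, 55.6 and 79.9 CPM in WT ASO1 and 137, 72.7, 71.4 and 56.3 CPM in WT ASO Control. Col6a2 had 60.0, 68.8, 93.3 and 151 CPM in Dnm2SL/+ ASO1, 135 to 182 CPM (median 159.9) in Dnm2SL/+ ASO Control, 51.2 and 79.1 CPM in WT ASO1 and 127, 70.3, 71.5 and 56.3 CPM in WT ASO Control. In both chains 3 of the 4 WT ASO Control libraries were far below the mutant range, and WT ASO Control 1 was inside it for Col6a1 and just below it for Col6a2. The log2FC was 0.90 ± 0.24 for Col6a1, 0.97 ± 0.25 for Col6a2 and 0.97 ± 0.27 for Col6a3 (SE, adjusted p = 0.0085, 0.0082 and 0.011). Per kilobase the proportions of the chains overlapped between the groups, with Col6a2 over Col6a1 at 0.534 ± 0.0212 in Dnm2SL/+ ASO Control (SD, n = 6) and 0.513 ± 0.0184 in WT ASO Control (SD, n = 4), and Col6a3 over Col6a1 at 0.280 ± 0.0326 and 0.273 ± 0.0214. The size of these ratios depends on the merged exon lengths, 4.38 kb for Col6a1 and 8.33 kb for Col6a2. In Dnm2SL/+ ASO Control these 2 chains averaged 157 and 159 CPM.

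Col6a6, an alternative to the third chain of type VI collagen, moved the other way. It had 2.56, 3.00, 3.66 and 6.14 CPM in Dnm2SL/+ ASO1, 1.92 to 4.01 CPM (median 2.19) in Dnm2SL/+ ASO Control, 2.65 and 5.00 CPM in WT ASO1 and 5.44, 4.66, 6.19 and 3.52 CPM in WT ASO Control. The mutant libraries were below WT apart from Dnm2SL/+ ASO Control 6, and the log2FC was -1.01 ± 0.27 (SE, adjusted p = 0.0088). Col9a1, a FACIT collagen (one that lies on the surface of fibrils) best known from type II fibrils of cartilage, had 5.23, 5.08, 4.58 and 4.85 CPM in Dnm2SL/+ ASO1, 1.88 to 4.43 CPM (median 2.39) in Dnm2SL/+ ASO Control, 6.51 and 4.60 CPM in WT ASO1 and 6.37, 4.98, 5.64 and 4.14 CPM in WT ASO Control. Only Dnm2SL/+ ASO Control 3, at the top of its group, reached the WT range. The log2FC was -1.01 ± 0.20 (SE, adjusted p = 0.0014). Col9a2, a partner chain of Col9a1, was also lower (log2FC -1.41 ± 0.48, SE, adjusted p = 0.033), at 0.111 CPM on average in the mutant, and the call did not hold without Dnm2SL/+ ASO Control 1, 2, 4, 5 or 6 or WT ASO Control 2, 3 or 4 (adjusted p 0.051 to 0.11).

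The remaining called members were all higher in the mutant. Col14a1, a FACIT collagen of tendon and connective tissue, had a log2FC of 1.07 ± 0.37, Col13a1, a transmembrane collagen of the neuromuscular junction, 0.89 ± 0.28, Col26a1 0.84 ± 0.22 and Col19a1, a low-level FACIT collagen, 1.66 ± 0.59 (SE, adjusted p = 0.035, 0.023, 0.0089 and 0.043). Col10a1, the collagen of hypertrophic cartilage, had 0 counts in all 4 WT ASO Control libraries and 60 counts over the 6 Dnm2SL/+ ASO Control libraries, at least 11.6-fold higher against a floor of 3 counts over the group (adjusted p = 0.026). Its exons overlap those of Nt5dc1 on the other strand, and the strand setting of the counting was not given. The calls of Col14a1, Col13a1, Col19a1 and Col10a1 each failed without WT ASO Control 2, 3 or 4 (adjusted p 0.051 to 0.11), that of Col14a1 also without Dnm2SL/+ ASO Control 2, 3 or 6, and that of Col19a1 also without WT ASO Control 1 or Dnm2SL/+ ASO Control 2 or 4. Among members not called, Col15a1 and Col28a1, named after their values were seen, also had every mutant library above every WT library (adjusted p = 0.063 and 0.050). For Col28a1 this was in effect a tie, at 3.958 CPM in Dnm2SL/+ ASO Control 2 and 3.957 CPM in WT ASO Control 3.

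**Figure D4:**
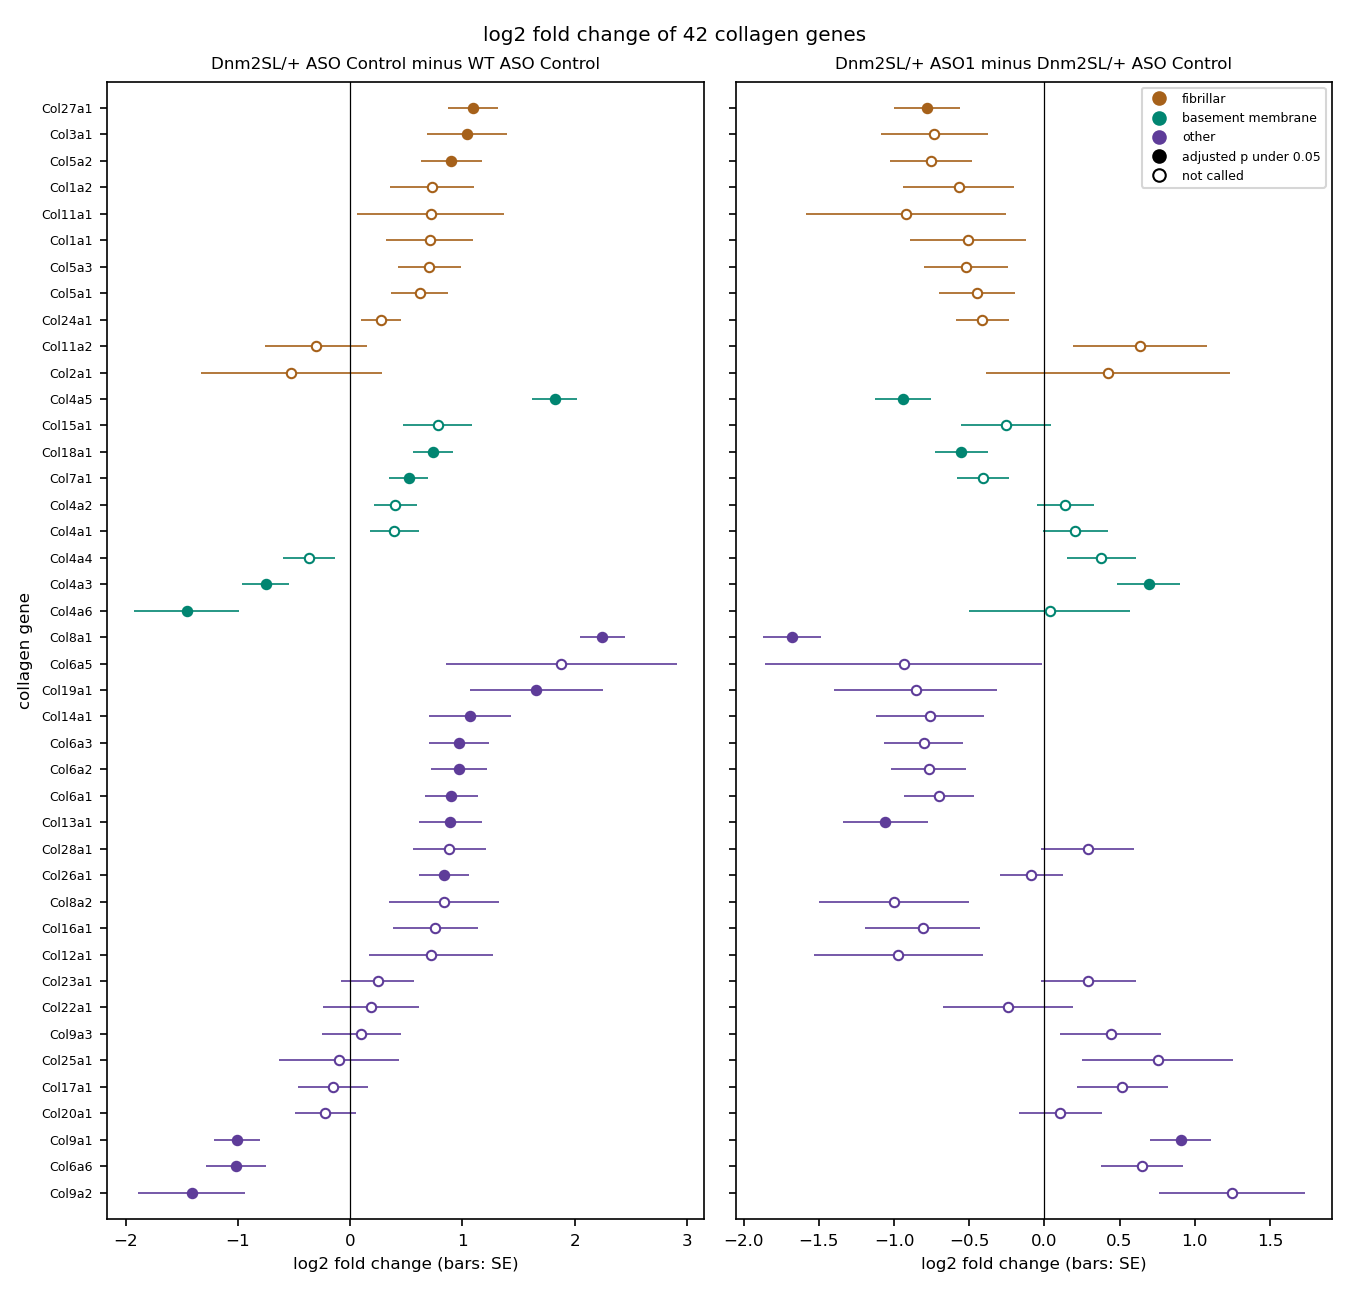
log2 fold change (x axis, bars are SE) of 42 collagen genes (y axis, grouped by class) for the mutant against WT under ASO Control (left) and for ASO1 against ASO Control in the mutant (right). Filled points passed an adjusted p of 0.05, 15 higher and 5 lower on the left with Col10a1 counted, and 2 higher and 5 lower on the right; Col10a1, at 0 counts in WT ASO Control, and Col6a4, under the count filter, are not drawn.

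The effect of ASO1 in the mutant was read from Dnm2SL/+ ASO1 against Dnm2SL/+ ASO Control. Of 43 collagens 2 were higher and 5 lower, with a median log2FC of -0.45, while the fit called 6.96% of all genes higher and 8.06% lower, with a median of 0.0052. Among the called members Col8a1 fell most, by 1.68 ± 0.19 on the log2 scale (SE, adjusted p = 1.0e-04), and no Dnm2SL/+ ASO1 library reached the range of Dnm2SL/+ ASO Control. Col4a5 (log2FC -0.94 ± 0.19, adjusted p = 0.0036), Col13a1 (-1.06 ± 0.28, adjusted p = 0.020), Col27a1 (-0.78 ± 0.22, adjusted p = 0.025) and Col18a1 (-0.55 ± 0.18, adjusted p = 0.045) fell as well. Col9a1 and Col4a3, lower in the mutant under ASO Control, were higher under ASO1, with log2FC of 0.91 ± 0.20 and 0.69 ± 0.21 (SE, adjusted p = 0.0074 and 0.035), and each Dnm2SL/+ ASO1 library was above each Dnm2SL/+ ASO Control library in both genes. Every Dnm2SL/+ ASO1 library lay above every Dnm2SL/+ ASO Control library in 2 collagens and below in 4, beside 5.1% and 6.24% of all genes. This comparison shares the Dnm2SL/+ ASO Control libraries with the genotype comparison, so the signs of their fold changes are not independent.

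The count of lower calls depended on Dnm2SL/+ ASO1 4. In this library Col3a1 stood at 970.2 CPM, Col5a3 at 114 CPM and Col6a2 at 151 CPM, inside or above the range of Dnm2SL/+ ASO Control, whereas the other 3 Dnm2SL/+ ASO1 libraries were below it for each of these genes. Without it 11 collagens were lower, Col3a1 among them (log2FC -1.26, adjusted p = 0.020), together with all main type VI chains. With it, Col6a1, Col6a2 and Col6a3 had log2FC of -0.70 ± 0.23, -0.77 ± 0.25 and -0.80 ± 0.26 (SE, adjusted p = 0.056, 0.0502 and 0.052). The count of lower calls was 8 without WT ASO Control 1, 3 without Dnm2SL/+ ASO1 1, Dnm2SL/+ ASO Control 2 or Dnm2SL/+ ASO Control 4, and 2 without Dnm2SL/+ ASO1 2. The calls of Col8a1, Col4a5 and Col9a1 stood in every alternative that kept the threshold. Col13a1 was not called without Dnm2SL/+ ASO1 1 or 2 (adjusted p = 0.056 and 0.062), nor Col27a1 without Dnm2SL/+ ASO1 2 or 4 or Dnm2SL/+ ASO Control 2 or 4 (adjusted p 0.058 to 0.078). The call of Col4a3 was lost without any 1 of the 4 Dnm2SL/+ ASO1 libraries (adjusted p 0.051 to 0.079) and without Dnm2SL/+ ASO Control 2, 3, 5 or 6, so that the count of higher calls was 1 without any of these except the last. Col18a1 was not called without Dnm2SL/+ ASO1 1 (log2FC -0.42, adjusted p = 0.14) and in 11 other leave-one-out fits (adjusted p 0.050 to 0.12), and kept its call only without Dnm2SL/+ ASO1 4, Dnm2SL/+ ASO Control 6 or WT ASO Control 2 or 4.

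Dnm2SL/+ ASO1 against WT ASO Control left 1 of 43 collagens called, beside 1.66% of all genes higher and 2.86% lower. Col4a5 was higher, with a log2FC of 0.88 ± 0.21 (SE, adjusted p = 0.028) and all 4 Dnm2SL/+ ASO1 libraries above all 4 WT libraries. Such a separation was seen in 2 collagens above and 0 below, beside 4.77% and 6.98% of all genes. The call was lost (adjusted p 0.053 to 0.087) without Dnm2SL/+ ASO1 2, 3 or 4 or WT ASO Control 2, 3 or 4, and 3 collagens were higher without Dnm2SL/+ ASO1 1, with Col4a1 and Col4a2 added, and 2 without Dnm2SL/+ ASO Control 1, with Col28a1 added. The fibrillar genes had log2FC between -0.20 and 0.33, with SE of up to 0.88, and none was called. Their signs were not stable, and that of Col3a1 ran from -0.21 to 0.70 over the alternatives. Col8a1 had a log2FC of 0.56 ± 0.21 (SE, adjusted p = 0.13).

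ASO1 in WT muscle rests on 2 WT ASO1 libraries. No collagen was called, 0 of 43, and in this comparison edgeR called 0.0% of all genes, with 4 collagens and 1605 genes at an unadjusted p under 0.05, and DESeq2 and limma voom likewise called 0 collagens. The median log2FC of the collagens was -0.26. Col8a1 and Col4a5 had 2.58 and 3.88 CPM and 1.59 and 2.77 CPM in WT ASO1, with log2FC of -0.74 ± 0.28 and -0.44 ± 0.27 (SE, adjusted p = 0.39 and 0.61). Between genotypes under ASO1, Col4a5 (log2FC 1.32 ± 0.28, adjusted p = 0.023) and Col8a1 (1.31 ± 0.28, adjusted p = 0.023) were the 2 collagens called higher and 0 were lower, beside 1.02% and 2.49% of all genes. Both calls were lost without WT ASO1 1 (log2FC 0.98 and 1.05, adjusted p = 0.41 each) and without Dnm2SL/+ ASO1 4 (adjusted p = 0.058 each). The difference between the ASO1 effects in the 2 genotypes was called for 0 of 43 collagens (edgeR, 7 at an unadjusted p under 0.05), beside 0.882% of genes higher and 1.94% lower. DESeq2 called 1 higher (Col4a3, 1.196, adjusted p = 0.022) and 1 lower (Col6a5, -5.12, adjusted p = 0.013), and voom 1 higher (Col4a3, 1.35, adjusted p = 0.044). In edgeR Col4a3 was called without Dnm2SL/+ ASO Control 1 or WT ASO1 2 (adjusted p = 0.036 and 0.019), Col7a1 was called lower without Dnm2SL/+ ASO Control 1 (adjusted p = 0.046), and Col9a1 was called higher without Dnm2SL/+ ASO Control 3 (adjusted p = 0.044). Col6a5 was at 4.74 CPM in WT ASO1 2 and at 1.80 CPM or less in all other libraries.

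Some collagens varied widely between libraries of 1 group. Col1a1 and Col1a2, the chains of type I collagen, kept a narrow ratio per kilobase, 1.40 to 1.75 over the 16 libraries, while Col3a1 over Col1a1 ranged from 0.340 to 1.87. The size of these ratios depends on the annotated exon lengths, and in CPM Col1a2 was above Col1a1 in every library. Col1a1 was at 416, 111, 511 and 348 CPM in Dnm2SL/+ ASO1, 367 to 795 CPM (median 439.8) in Dnm2SL/+ ASO Control, 275 and 244 CPM in WT ASO1 and 566, 269, 221 and 149 CPM in WT ASO Control. It was highest within its group in Dnm2SL/+ ASO1 3, Dnm2SL/+ ASO Control 6 and WT ASO Control 1. The summed level of 8 tendon markers, of which Thbs4, Fmod and Egr1 were the most abundant, was 353, 55.6, 349.7 and 64.1 CPM in Dnm2SL/+ ASO1, 274 to 599 CPM (median 422) in Dnm2SL/+ ASO Control, 236 and 199 CPM in WT ASO1 and 544, 242, 148 and 118 CPM in WT ASO Control, and none of the 8 was at 0 in any library. Its highest libraries were Dnm2SL/+ ASO Control 6 and WT ASO Control 1, the same that were highest in their group for Col1a1. Of the 8 tendon markers 2 were called higher and 0 lower under genotype, beside 15.7% and 16.4% of all genes, and 0 higher and 3 lower under ASO1 in the mutant, beside 6.96% and 8.06%. The 2 higher were Scx and Egr1, and the 3 lower were these and Thbs4. The remaining markers were not called under genotype (edgeR log2FC -0.30 for Fmod to 1.01 for Thbs4, adjusted p 0.065 to 0.84). Egr1 alone averaged 84.8 ± 61.9 CPM in Dnm2SL/+ ASO Control (SD, n = 6) and 9.31 ± 4.94 CPM in WT ASO Control (SD, n = 4). Egr1 is also an immediate early gene of other cell types, so the sum and its calls do not measure tendon tissue alone. How far tendon tissue in a sample contributed to the collagen differences was not tested. Leaving out both of these control libraries, an alternative chosen after seeing the data, 21 collagens were higher and 5 lower under genotype, Col1a1 (log2FC 1.03, adjusted p = 0.038) and Col1a2 (1.07, adjusted p = 0.030) among the higher, and 3 were higher and 8 lower under ASO1 in the mutant. The share of all genes called in that fit was not worked out.

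**Figure D5:**
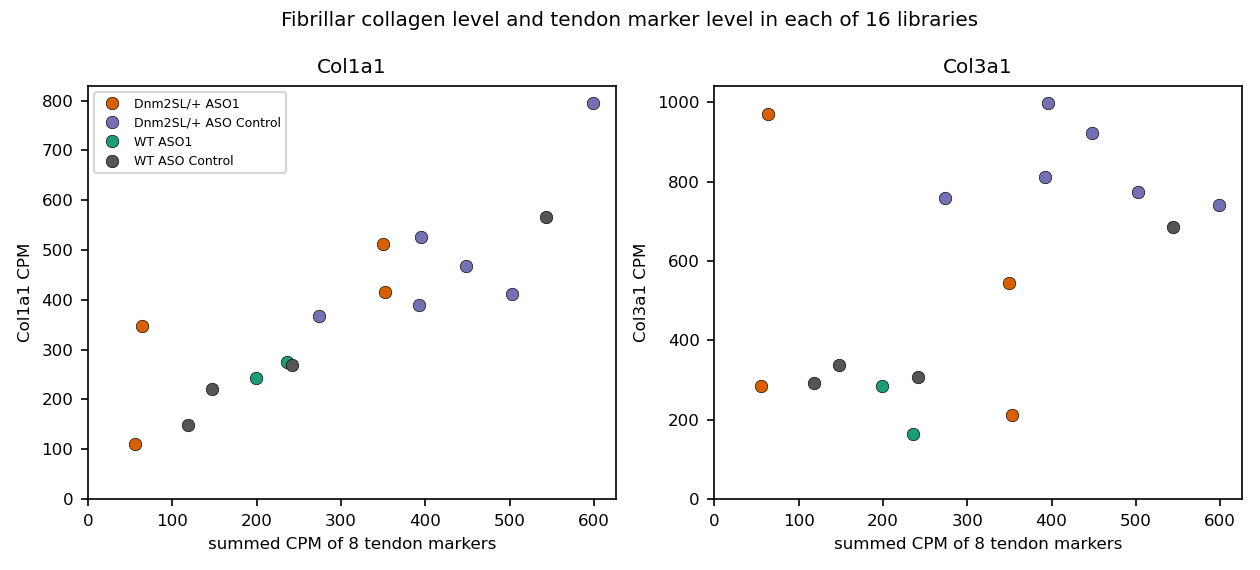
Level of Col1a1 (left, CPM) and Col3a1 (right, CPM) against the summed CPM of 8 tendon markers (x axis) in each of the 16 libraries, coloured by group. The WT ASO Control library at 544 CPM of tendon markers is the highest of its group in both panels, and the Dnm2SL/+ ASO1 library with 970.2 CPM of Col3a1 has 64.1 CPM of tendon markers.

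Markers of other cell types were read against the same shares of all genes, 15.7% higher and 16.4% lower under genotype and 6.96% higher and 8.06% lower under ASO1 in the mutant, and with 8 markers a list 1 call is near these shares. The 12 fibroblast and fibro-adipogenic markers summed to 1064 to 1551 CPM in Dnm2SL/+ ASO1, 1682 to 2163 CPM in Dnm2SL/+ ASO Control, 491 to 910.2 CPM in WT ASO1 and 767 to 1685 CPM in WT ASO Control, with 6 of 12 higher and 1 lower under genotype, 0 higher and 2 lower under ASO1 in the mutant, and none at 0 in any library. The 8 macrophage markers summed to 25.9 to 62.5, 46.6 to 84.0, 18.5 to 37.5 and 23.1 to 51.4 CPM in the same order of groups, with 5 of 8 higher under genotype and 2 lower under ASO1 in the mutant. The 8 endothelial markers summed to 557 to 810 CPM in Dnm2SL/+ ASO1, 436 to 549.8 CPM in Dnm2SL/+ ASO Control, 525 to 576 CPM in WT ASO1 and 557 to 692 CPM in WT ASO Control, with 1 of 8 lower under genotype and 4 higher under ASO1 in the mutant. The 8 pericyte and smooth muscle markers summed to 859 to 1104 CPM in Dnm2SL/+ ASO1, 773 to 894 CPM in Dnm2SL/+ ASO Control, 906 to 1136 CPM in WT ASO1 and 981 to 1209 CPM in WT ASO Control, with 0 higher and 5 lower under genotype and 2 higher and 0 lower under ASO1 in the mutant. The 8 muscle fibre markers summed to 130780 to 142610 CPM in Dnm2SL/+ ASO1, 109300 to 124060 CPM in Dnm2SL/+ ASO Control, 144160 to 170900 CPM in WT ASO1 and 142220 to 154970 CPM in WT ASO Control, so that Dnm2SL/+ ASO Control lay below every other group without overlap. Of these 1 was higher and 4 lower under genotype, and 5 were higher and 1 lower under ASO1 in the mutant. The 8 satellite cell markers summed to 3173 to 3317 CPM in Dnm2SL/+ ASO1, 4322 to 5319 CPM in Dnm2SL/+ ASO Control, 3342 to 3510 CPM in WT ASO1 and 2927 to 3263 CPM in WT ASO Control, with 2 higher and 3 lower under genotype and 0 higher and 3 lower under ASO1 in the mutant. Nearly all of this sum was Des, an intermediate filament gene that muscle fibres also express, at a mean of 3795 CPM over the 16 libraries, whereas Pax7, Myf5 and Calcr, which define satellite cells, were at most 2.67, 2.30 and 1.72 CPM and were the 3 lower under genotype. Calcr was at 0 in 3 libraries. Schwann cell and adipocyte markers had 0 of 8 called in either direction in both comparisons. Of the 8 cartilage and bone markers 5 were tested, 2 were higher and 0 lower under genotype and 0 were higher and 1 lower under ASO1 in the mutant. Bglap and Sp7, which were not tested, and Ibsp, tested but not called, were at 0 counts in 7 or 8 of the 16 libraries. The part of these cell types in the collagen differences was not tested.

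The enzymes that prepare collagen chains were described from lists. Of the 23 genes for hydroxylation and folding 12 were higher under genotype and 3 lower, beside 15.7% and 16.4% of all genes, with a median log2FC of 0.29. Those with the smallest p were Mia3, which loads collagen into transport vesicles (-0.41 ± 0.06, adjusted p = 1.4e-04), Fkbp7, a prolyl isomerase of the endoplasmic reticulum (0.80 ± 0.13, adjusted p = 3.25e-04), Ppib, the prolyl isomerase cyclophilin B (0.46 ± 0.09, adjusted p = 0.0014), Sec23a, a coat protein of the export vesicles (-0.27 ± 0.06, adjusted p = 0.0030), and P4ha3, a prolyl hydroxylase subunit (2.54 ± 0.60, adjusted p = 0.0040). P4ha3 was near the floor, at 0.454 ± 0.163 CPM in Dnm2SL/+ ASO Control (SD, n = 6). It had 0.0725 ± 0.0699 CPM in WT ASO Control (SD, n = 4) and was at 0 in 1 library. Under ASO1 in the mutant 0 of the 23 genes were higher and 1 lower, beside 6.96% and 8.06% of all genes.

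Of the 12 tested genes of propeptide removal and cross-linking 3 were higher and 0 lower under genotype, beside 15.7% and 16.4% of all genes, and 0 were called under ASO1 in the mutant, beside 6.96% higher and 8.06% lower. The higher genes were Pcolce, an enhancer of propeptide cleavage, at 66.6 ± 6.95 CPM in Dnm2SL/+ ASO Control (SD, n = 6) and 36.7 ± 17.3 CPM in WT ASO Control (SD, n = 4), and the lysyl oxidase-like genes Loxl1 and Loxl2, with log2FC of 0.86 ± 0.23, 0.92 ± 0.26 and 0.76 ± 0.24 (SE, adjusted p = 0.011, 0.014 and 0.025). Adamts3 and Bmp1, both propeptidases, were not called (log2FC 0.71 ± 0.38 and 0.26 ± 0.15, SE, adjusted p = 0.17 and 0.19). Of the 10 tested collagen receptors 5 were higher and 0 lower, beside the same shares, with a median of 0.87. Itgb1, the shared beta chain of the collagen-binding integrins, averaged 396 ± 44.4 CPM in Dnm2SL/+ ASO Control (SD, n = 6) and 226 ± 18.5 CPM in WT ASO Control (SD, n = 4), a log2FC of 0.81 ± 0.08 (SE, adjusted p = 6.2e-06). The receptor tyrosine kinase Ddr1 (0.93 ± 0.13), the collagen endocytosis receptor Mrc2 (1.26 ± 0.19), the proteoglycan Cspg4 (1.19 ± 0.20) and the integrin alpha chain Itga10 (0.71 ± 0.22) were also higher, with adjusted p between 8.9e-05 and 0.019. Under ASO1 in the mutant Itgb1, Mrc2 and Itga10 were lower (log2FC -0.56, -1.001 and -0.66), 3 of 10, and 0 were higher.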

How the data were processed

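Per the labels, TRI Reagent was used for extraction and a stranded mRNA kit for the libraries. The raw counts per gene deposited by the authors were made, per the submitters' processing notes, with HTSeq 0.6.1p1, STAR 2.5.3a, Bowtie2 2.2.8 and cutadapt 1.10 on GRCm38, whereas the annotation release and strand setting are not given in the sources used here. All 30037 gene IDs were matched to symbols in GENCODE M21. No pair of libraries was a duplicate (120 pairs, chi-square per degree of freedom 10.7 to 211).

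After filterByExpr, which kept 15649 genes, TMM scaling was applied, and edgeR 4.0.16 (R 4.3.3, quasi-likelihood test) was fitted with 4 group means, 16 libraries and 12 residual degrees of freedom, and Benjamini-Hochberg adjustment over all genes. SE was derived as the size of the log2FC divided by the root of the F statistic. CPM per kb used the exon length of GENCODE M21, merged over all transcripts of a gene. It can exceed the length of the main transcript, so orders and ratios between genes depend on the annotation. Alternatives were RLE scaling, library totals only, no filter, over 1 CPM in 4 libraries, DESeq2 1.42.0, voom with quality weights (limma 3.58.1), the replicate number as a block, fits restricted to the groups compared, an absolute log2FC above 1 and each library left out. Scripts were tested on simulated data.

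The members and lists were chosen with earlier results of these data known. Full values are given for at most 5 members per class and list, those with the smallest p in the genotype comparison, and other members where called. Genes that share exons with Col3a1 and Col10a1 are named above. Exons of Col7a1 overlap Mir711 on the same strand. On the other strand, exons of Col4a3 overlap C430014B12Rik and those of Col6a6 overlap Gm38314. Some members that were not called also share exons, such as Col5a1 with 2810430I11Rik and Gm13372, and Col15a1 with Gm12426.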

Additional observations from a re-analysis of the deposited data

Results flagged for a closer look

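Each of the 43 tested members was checked in the 3 groups of 4 to 10 libraries for a library far from the rest of its group, 129 checks of which 13 stood out. The nominal rate is about 1 in 20. It holds for independent values, whereas collagens vary together within a library, so the 13 cannot be set against it. Dnm2SL/+ ASO Control 6 was the highest of its group in 6 of them. It had 795 CPM of Col1a1 (next highest 526), 1.69 CPM of Col2a1 (0.26), 4.01 CPM of Col6a6 (2.37), 9.02 CPM of Col8a2 (3.81), 19.1 CPM of Col11a2 (6.93) and 31.6 CPM of Col16a1 (18.3). This library also had the highest summed tendon markers, 599 CPM, and the lowest Dnm2 of its group, and the part of either was not tested. WT ASO Control 1 was highest for Col3a1 (686 CPM, next 338) and Col22a1 (67.0 CPM, next 20.3). Dnm2SL/+ ASO Control 1 was highest for Col4a1 (753 CPM, next 633) and Col28a1 (10 CPM, next 5.56). Dnm2SL/+ ASO Control 3 had 4.43 CPM of Col9a1, with 2.62 next. Dnm2SL/+ ASO1 1 had 0.263 CPM of Col10a1, with 0.0317 next. WT ASO Control 2 was lowest for Col4a4, at 2.18 CPM, with 3.23 next.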

How the results depend on the processing

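No difference called here, or called under an alternative, changed sign, whereas some that were not called did, such as Col2a1 under genotype (-1.65 to 0.046). Scaling by library totals alone moved the median log2FC of all genes to 0.23 under genotype with ASO Control, -0.13 for ASO1 in Dnm2SL/+, 0.11 for Dnm2SL/+ ASO1 against WT ASO Control and 0.16 for genotype under ASO1, and the collagen counts should be read against that shift: 22 higher and 3 lower, against 15 and 5; 1 higher and 11 lower, against 2 and 5; and 2 higher, against 1. With that scaling the mean in WT ASO1 was 828.9 CPM for basement membrane collagens and 1915 CPM for all collagens. An absolute log2FC above 1 left 7 higher under genotype, 0 higher and 2 lower for ASO1 in Dnm2SL/+ and 0 for Dnm2SL/+ ASO1 against WT ASO Control. The lower count under genotype was 3 with over 1 CPM in 4 libraries and 3 with only the groups compared. For ASO1 in Dnm2SL/+, DESeq2 gave 9 lower and voom 11. For Dnm2SL/+ ASO1 against WT ASO Control, DESeq2 and voom gave 2 higher and only the groups compared gave 0. Under genotype with ASO1, voom and only the groups compared each gave 0 higher. The interaction had 1 higher with DESeq2 and with voom, and 1 lower with DESeq2. Leaving out both libraries with the highest tendon markers gave 8 lower for ASO1 in Dnm2SL/+. The shares of all genes called under these alternatives were not worked out, so these counts cannot be set against the shares given above.

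Leaving out each library in turn gave 8 to 22 higher and 3 to 5 lower under genotype, 1 to 2 higher and 2 to 11 lower for ASO1 in Dnm2SL/+, 0 to 3 higher for Dnm2SL/+ ASO1 against WT ASO Control, 0 to 2 higher for genotype under ASO1, and 0 to 1 in each direction for the interaction. The shares of all genes called were taken from the main edgeR fit of all 16 libraries only, so these counts cannot be set against them. With the replicate number as a block the counts were 10 higher and 3 lower under genotype, 2 higher and 4 lower for ASO1 in Dnm2SL/+, and 0 higher for genotype under ASO1, and Col4a3 was not called under genotype (adjusted p = 0.0998). No pairing by number was seen. Over 18 same-numbered pairs the correlation of deviations from the group means was -0.16 to 0.25, over 0.1 in 3. The same number correlated best in 5 of 36 comparisons. Deviations within a group sum to 0, so in groups this small the check cannot exclude a pairing. The cause of these shifts was not tested. WT ASO1, with 2 libraries, and genes with few counts, such as Col4a6, Col9a2 and Col10a1, limit the precision.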
